A study of Mus musculus with 2 samples.

Results

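miRNA array entries numbered miR-680 to miR-721, leaving out miR-702, were examined in bone marrow KSL cells of 1 Tif1b KO and 1 WT sample. They were chosen by name alone, as every non-control mouse probe set whose number falls in that range, with any letter or arm. The array carried 41 such miRNAs with 156 probes, of 1247 mouse miRNAs with 3105 probes in all. The 41 entries covered 35 numbers, and 6 numbers had both arms. Other numbers of the range were not analysed here.

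The study compared small RNA of c-Kit+ Sca1+ Lineage- (KSL) cells, a marrow population rich in stem and early progenitor cells of the blood, between genotypes. The KO sample was labelled CreERT, Tif1bf/f and the WT sample CreERT, Tif1bw/w. Both thus carried the CreERT transgene, came from adult bone marrow on a C57/BL6 background, and gave 100 ng of total RNA for Cyanine 3 labelling. Tif1b, also called Trim28 or KAP1, is recruited by zinc finger proteins to silence retroelements and other loci. Whether and when recombination was induced, what drives the Cre, and how many animals gave cells are not given in the sources used here. Loss of Tif1b was not checked, because miRNA arrays hold no probe for it. With 1 array per genotype there is no replicate and no test. Each difference describes these arrays, and the spread given is that between spots of an array, which is technical.

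A genuine miRNA is cut from a hairpin precursor: Drosha and Dicer leave a short duplex whose mature strand lies on a single arm of the stem. The mature strand is loaded into Argonaute and pairs with targets through its seed, bases 2 to 8. Many entries of this number range were first named from short sequence tags of mouse embryos, and several have since been disputed as fragments of repeats, ribosomal RNA or other transcripts. Others, such as miR-708, a vertebrate miRNA within the gene for the adhesion molecule Tenm4, are accepted.

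The sequences on which the results turn are shown here. The array detects each miRNA with nested probes, each longer one reaching further from the 3′ end of the mature strand towards its 5′ end. The probes of miR-709, the one entry with a clear signal, differ by a single base, shown as a capital.
miR-709, 11-base probe: tcctcctgcct
miR-709, 12-base probe: tcctcctgcctC
The 12-base probe is the complement of this stretch, written as DNA:
miR-709, probe target: gaggcaggagga
miR-690 came next in signal. Its mature strand, with the seed in capitals, and its probes were:
miR-690: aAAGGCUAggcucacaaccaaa
miR-690, 15-base probe: tttggttgtgagcct
miR-690, 16-base probe: tttggttgtgagcctA
Mature strands with the seed in capitals show the members that share a seed with a miRNA of lower number, each above its partner:
miR-721: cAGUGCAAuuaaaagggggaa
miR-130a-3p: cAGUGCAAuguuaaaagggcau
miR-708-5p: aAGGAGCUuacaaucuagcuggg
miR-28a-5p: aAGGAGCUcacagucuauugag
The strands of miR-693, whose precursor folds most stably per base among the members, were:
miR-693-5p: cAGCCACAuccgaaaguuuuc
miR-693-3p: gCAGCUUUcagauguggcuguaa
The mature strands are from RefSeq (GRCm38.p6), whose table held 34 of the 41 members. All 130 probes of these 34 were the exact complement of the 3′ end of their mature strand. No mature strand of miR-709 was found in that table, and it is not shown.

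Almost none of the members gave a signal. Measured here means that for at least 1 probe of a miRNA over 50% of the non-outlier spots were marked well above background by the scanner software. On the KO array 1 of 41 members was measured (2.44%), where 6.26% of all miRNAs were. On the WT array 1 of 41 was measured (2.44%), where 8.02% of all miRNAs were. It was miR-709 both times. On both arrays with a common probe 1 member was measured, against 5.77% of all miRNAs. Among the other miRNAs, entries numbered from 500 up to, not including, 1000 had 3 of 161 measured on KO and 2 of 161 on WT (1.86% and 1.24%). Those numbered below 500 had 46 of 574 on KO and 67 of 574 on WT, those numbered 1000 and above 20 of 449 and 22 of 449, and let-7 with miR-98 8 of 22 on each array. These shares describe 2 arrays and the classes were not tested against each other.

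**Figure D1:**
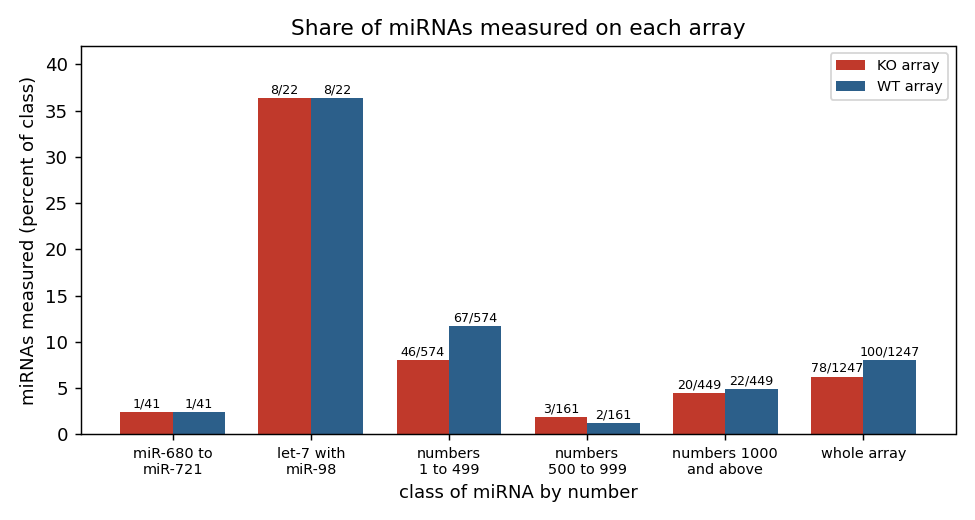
Percent of miRNAs measured on the KO array (left bar of each pair) and the WT array (right bar), by class of miRNA number, with the counts above the bars. The miR-680 to miR-721 class has 1 of 41 on each array, against 78 of 1247 on KO and 100 of 1247 on WT for the whole array.

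miR-709 was among the brightest miRNAs of both arrays. By its brightest probe it ranked 14 of 1247 on KO and 16 of 1247 on WT, a rank of signal that also depends on how well each probe binds and so is not a rank of abundance. The 12-base probe averaged 473 intensity units on the KO array (19 spots from 416 to 519, median 472) and 844 on the WT array (18 spots from 784 to 920, median 840). All these spots were well above background, and before scaling the spots of the arrays did not overlap. The 11-base probe averaged 31.7 on KO (14 spots from 25.7 to 41.5) and 58.3 on WT (16 spots from 37.0 to 69.2). Here the lowest WT spot lay below the highest KO spot, and again every spot used was above background. The single added base thus went with a signal 14.95 times higher on KO and 14.48 times higher on WT. The software's total gene signal, which combines the probes, was 143 on KO and 255 on WT.

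**Figure D2:**
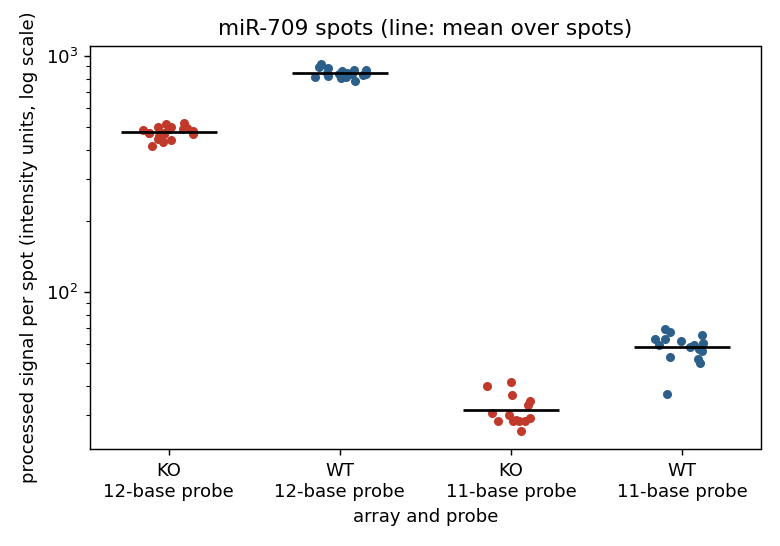
Processed signal of each non-outlier spot of miR-709 on a log axis, with KO left of WT for the 12-base and then the 11-base probe, and lines at the means. The 12-base spots lie at 416 to 519 on KO and 784 to 920 on WT, and the 11-base spots more than 10 times lower.

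The whole KO array was dimmer, with a mean processed signal of 9.14 against 21.9 on WT, so signals were scaled before genotypes were compared. The divisor was the 75th percentile of the 113 probes that both arrays measured, 213 on KO and 487 on WT. After scaling, miR-709 differed by 0.33 on the log2 scale, KO minus WT, or 1.26-fold. Its probes gave 0.36 (spot SD 0.093 over 17 positions) and 0.31 (spot SD 0.24 over 12 positions). Over spot positions, the 12-base probe ranged from 0.23 to 0.54. The miRNA was therefore within 2-fold, so 0 members reached a 2-fold increase and 0 a 2-fold decrease on KO. Among all 72 miRNAs with a difference, 13.9% reached a 2-fold increase and 13.9% a 2-fold decrease. The median difference of all 72 was 0.30, with quartiles of -0.17 and 0.65, and miR-709 ranked 36 from the top, 0.03 above that median. The sign of its difference rests on the scaling: without it the value was -0.86, while the median miRNA was at -0.89.

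**Figure D3:**
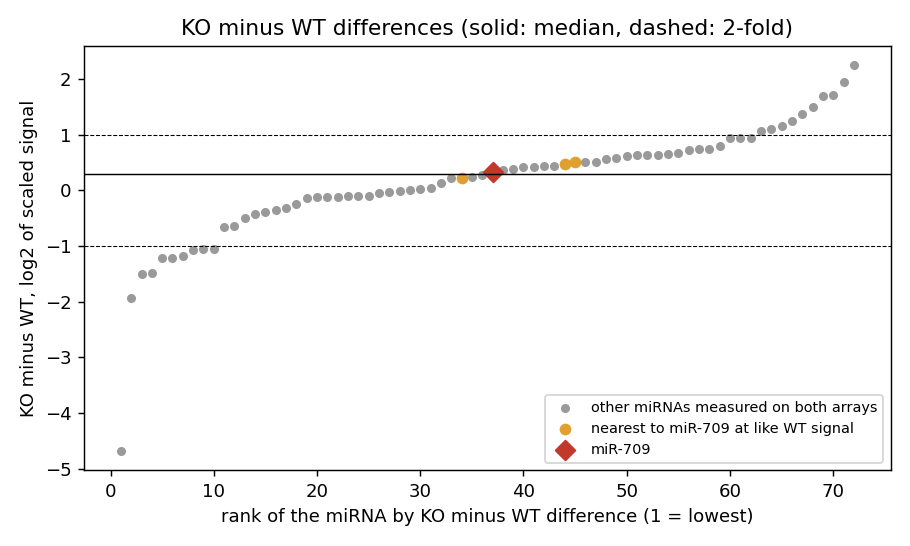
KO minus WT differences of the 72 miRNAs measured on both arrays, on the log2 scale after scaling, in order from lowest to highest. miR-709 (diamond, 0.33) lies beside the median of 0.30 and inside the dashed lines at 2-fold.

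The 3 other miRNAs with the nearest differences among 16 with a WT signal within 2-fold of that of miR-709 were let-7g-5p, let-7i-5p and miR-6243. Signals are unscaled unless stated otherwise, and differences are scaled. let-7g-5p had 406 on KO and 909 on WT, a difference of 0.22. let-7i-5p had 924 on KO and 1445 on WT, a difference of 0.48. miR-6243 had 385 on KO and 661 on WT, a difference of 0.51. The let-7 miRNAs are a conserved family that favours differentiation. The likeness is over 1 pair of arrays only.

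Markers gave the background of the cells. Of 8 miRNAs of stem and progenitor cells 4 were measured on KO and 5 on WT, with summed unscaled signals of 462 and 576. In units of each array's 75th percentile these sums were 2.17 on KO and 1.18 on WT. The 4 measured on both arrays had scaled differences of 0.03 (miR-126-3p) to 1.16 (miR-196b-5p). Both mature myeloid markers were measured on both arrays, with an unscaled sum of 200 on KO and 4384 on WT, or 0.941 and 9.01 after scaling. Within that sum miR-223-3p, abundant in granulocytes and monocytes, had 63.6 on KO and 3726 on WT before scaling, a scaled difference of -4.68. None of 2 erythroid, 2 lymphoid and 6 non-blood markers was measured on either array. The part of these differences in the values of miR-709 was not tested, and fewer cells of a type cannot be told apart from less RNA per cell.

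The 40 members other than miR-709 were measured on neither array, as were 1141 of all 1247 miRNAs. Of their 154 probes, 0 of 1532 spots on KO and 2 of 1518 spots on WT were well above background. Their probe signals ran from -11.0 to 11.1 on KO (median -4.62) and from -10.3 to 13.3 on WT (median -3.61), so most lay below 0 after the software's background subtraction. Below 0 were 138 of 154 probes on KO and 135 of 154 on WT. Of all unmeasured probes of the array, 69.8% on KO and 70.7% on WT were below 0, with medians of -2.31 and -2.08. The 7 negative control probes averaged 5.05 to 9.89 on KO and 5.07 to 8.86 on WT. Above the highest of them lay 1 member probe on each array, both of miR-690. At this signal over background, such members were not detectable, which does not show that they are absent.

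**Figure D4:**
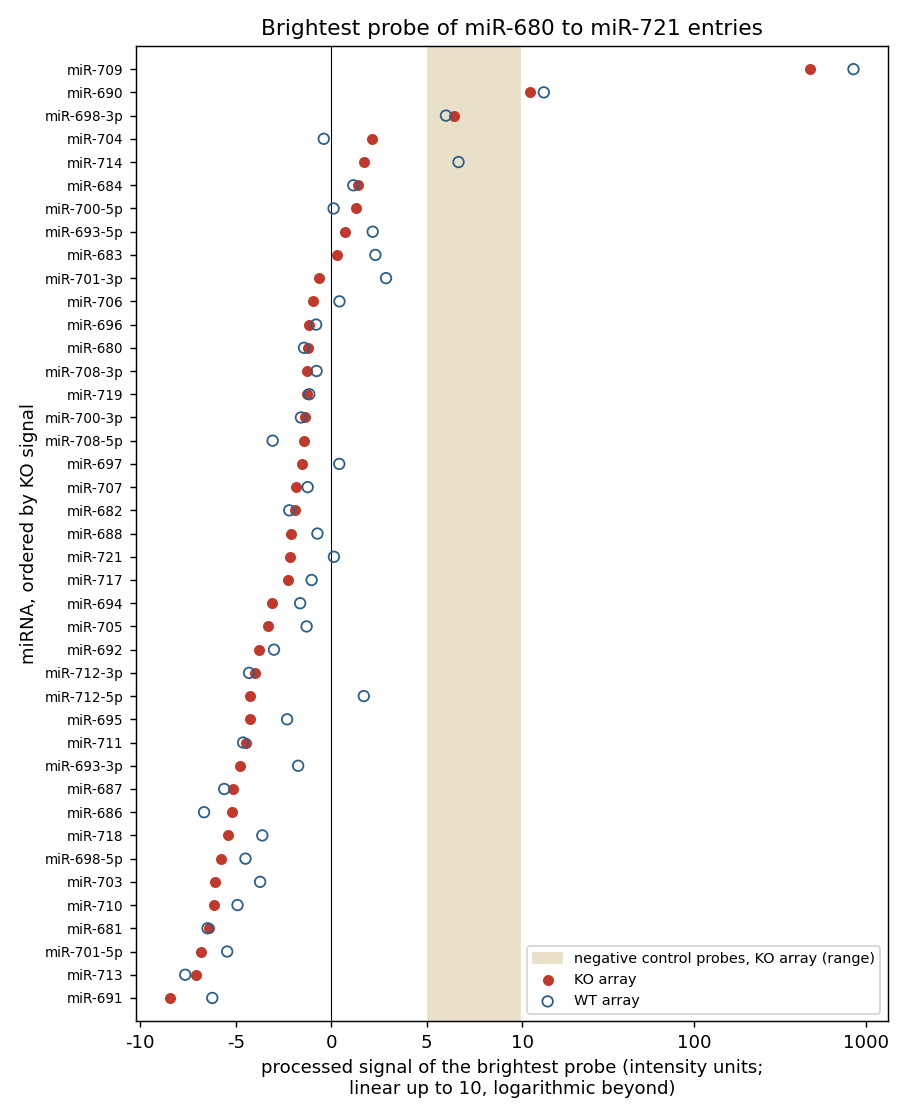
Brightest probe of each of the 41 members on the KO array (filled) and the WT array (open), ordered by the KO signal, with the range of the negative control probes on the KO array shaded. The axis is linear up to 10 units and logarithmic beyond. miR-709 stands alone at 473 on KO and 844 on WT, and miR-690 follows at 11.1 and 13.3.

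Shorter probes, which were also richer in GC, gave the lower values in members and in other miRNAs alike. The longest probe of a member had a median of 15 bases (12 to 21) and 55.6% GC (33.3% to 85.7%), against 17 bases and 50% over the array. Among probes of 10 to 12 bases the median was -6.54 on KO and -5.66 on WT for 36 member probes, against -5.87 on KO and -5.78 on WT for 214 others. Among probes of 13 to 15 bases it was -4.90 on KO and -3.80 on WT for 60 member probes, against -4.22 and -3.77 for 965 others. The gap was wider for longer probes. At 16 to 18 bases 45 member probes had -3.55 on KO and -2.58 on WT, against -1.68 and -1.51 for 1027 others. At 19 to 23 bases 13 member probes had -1.29 on KO and -1.15 on WT, against 1.48 and 1.58 for 574 others. Probes of a miRNA share their sequence, so these are few independent targets. The longest probe was brighter than the shortest in 29 of 40 unmeasured members on KO (72.5%) and 33 of 40 on WT (82.5%), against 70.6% and 72.7% of 1097 other unmeasured miRNAs. Among those with 4 probes it was 73.0% on KO and 81.1% on WT for 37 members, against 76.0% on each array for 233 others. A rise with probe length thus appeared in unmeasured entries at large.

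Among the unmeasured members miR-690, miR-698-3p and miR-704 were brightest on KO, and miR-690, miR-714 and miR-698-3p on WT. For miR-690 the 15-base probe had 11.1 on KO and 7.48 on WT, and the 16-base probe 7.74 on KO and 13.3 on WT. Before scaling the probes thus differed in opposite directions, while after scaling both were higher on KO, with a median difference of 1.08. Scaling by itself puts equal signals higher on KO, since the divisor was 213 on KO and 487 on WT. The negative control probes had unscaled medians of 8.45 on KO and 7.43 on WT, so they too would come out higher on KO. Only the 16-base probe on WT had spots above background, 2 of 16. The software called miR-690 detected on WT, with a total gene signal of 3.77, and not on KO, where it wrote its floor of 0.1. miR-690 ranked 111 on KO and 116 on WT. By its brightest probe miR-698-3p had 6.44 on KO and 6.01 on WT, and all its probes were above 0 on both arrays. miR-714, whose longest and brightest probe was 85.7% GC, had 1.73 on KO and 6.66 on WT. Its shorter probes were all below 0 on both arrays. miR-704 had 2.12 on KO and -0.39 on WT by its brightest probe, so on WT all its probes were below 0. None of these had over 50% of a probe's spots above background on either array, so they have no difference under the filter used.

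Seeds were shared by few members. Of the 34 with a RefSeq mature strand, 29 had a seed found in no other mouse name of the table and 5 shared theirs. miR-721 has the AGUGCAA seed of the miR-130 and miR-301 family, which has 6 other names, all on the array. miR-721 itself had -2.15 on KO and 0.14 on WT and was not measured. Of its relatives miR-130a-3p, known from stem and progenitor cells, had 163 on KO and 176 on WT (difference 0.95). miR-130b-3p had 118 on KO and 309 on WT (-0.09). miR-301a-3p had 53.1 on KO and 100 on WT (0.27). The other 3 were measured on neither array. The longest miR-721 probe matches the last 15 of its 21 bases, and so reaches 2 bases of the seed. miR-708-5p shares its seed with miR-28a-5p. It had -1.41 on KO and -3.07 on WT, and miR-28a-5p had 4.72 on KO and 3.95 on WT, so neither was measured.

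The genomic places of the probes were taken from the array files, whose headers name the build mm9. They were compared with RefSeq genes of GRCm38.p6, and which build each place follows is not stated in the files. For 4 members, miR-696, miR-714 and both arms of miR-712, a miRNA described as coming from a spacer of the ribosomal RNA precursor, the files gave no place. That is 9.76% of the members, against 0.802% of the array's miRNAs. The other 37 had 50 places. Of these, 43 lay inside a RefSeq (GRCm38.p6) gene of the same number. Another 7, belonging to miR-698-3p and both arms of miR-700, miR-701 and miR-708, lay outside it, each at 1 fixed distance per gene from a place inside it. These distances were 322756, 444085, 429019 and 7148510 bases, in that order of genes. For genes on the plus strand 18 places fell in the mature miRNA. For genes on the minus strand 21 lay at the mirrored place, where the mature strand would be if counted from the wrong end of the gene. The remaining 4 had no mature position in the table.

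miR-680, miR-683, miR-684 and miR-692 mapped to more than 1 miRNA gene, so a signal of these could not be assigned to 1 copy. miR-680 has genes on chromosomes 6, 12 and X, and miR-683 has 2 on chromosome 13. miR-684 has genes on chromosomes 2 and 4, and miR-692 on chromosomes 4, 13 and 17. None of the 4 was measured. Of the 38 RefSeq miRNA genes of the members, 26 (68.4%) overlapped the span of a protein-coding gene, against 67.6% of 1190 other miRNA genes. Of the 26, 25 lay wholly within it, and Mir718 ran past the highest coordinate of Irak1. Mir709 lies on chromosome 8 at 84086099 to 84086186, within the span of Rfx1, a transcription factor gene. Mir690 lies on chromosome 16 at 28599935 to 28600043, within Fgf12. Mir693 lies on chromosome 17 at 46231531 to 46231619, within Xpo5, the gene for the exportin that carries miRNA precursors out of the nucleus. Mir708 lies on chromosome 7 at 96249424 to 96249532, within Tenm4, and Mir721 on chromosome 5 at 136375716 to 136375803, within Cux1, a homeobox gene. The table of spans does not say whether a place is exonic or intronic. Pseudogenes were overlapped by 4 miRNA genes, 2 of which, Mir692-2 and Mir684-1, are also among the 26. Mir692-2 and Mir692-3 lie within ferritin light chain pseudogenes, Ftl2-ps and Ftl1-ps1, Mir682 within Gm4149 and Mir684-1 within Gm13690. None of the 38 overlapped an annotated tRNA, rRNA or snoRNA gene. The 38 cover 32 of the 35 numbers. They hold no gene of miR-696, miR-712 or miR-714, so such an overlap could not be looked for in these.

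The letters of the miR-709 probe target were common for their length. On either strand gaggcaggagga was present in 32 of 32817 RefSeq promoter windows of 300 bases (0.0975%), and its 11-base part, which it contains, in 54 (0.165%). Over the 14 miRNAs whose longest probe has 12 bases, the median was 5.5 windows and miR-709 had the most. Among these, the 3 measured on an array, miR-709 included, had a median of 26 windows and the 11 unmeasured a median of 5. At 11 bases the medians were 331 for 2 measured and 15.5 for 6 unmeasured miRNAs, and at 13 bases 4 for 2 and 1 for 63. At 14 and at 15 bases they were 0 for measured and unmeasured miRNAs alike. The highest counts at 13 and 15 bases, 9 and 39, were of unmeasured miRNAs, miR-681 and miR-3470a. Whether such counts go with signal was not tested. For the 11-base part, 3 of the 8 miRNAs whose longest probe has 11 bases had more windows, up to 582, with a median of 20. The 16-base target of miR-690 was present in 3 windows. Whole precursors were searched in the same way with every word of 15 bases. For Mir690 the commonest word, ctggagagatggctc, was present in 60 windows (0.183%), and letters much like it belong to the B2 family of mouse repeats. For Mir713 it was cccttagggttagag, in 41 windows (0.125%), and for Mir718 ggcaagatggcggcg, in 10 windows. In 3 of 30 member precursors (10%) the commonest word was in at least 10 windows, against 37 of 963 precursors of all classes (3.84%). Longer precursors hold more words, and the members' precursors were longer, as given below. Precursors were not matched for length here. Counts in promoter windows stand in for a genome, which was not used here, and no such match is by itself a source of signal.

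Predicted folds of the RefSeq precursors set several members apart. The minimum free energy per base had a median of -0.32 kcal/mol over 30 member precursors. It was -0.43 for numbers below 500, -0.46 for let-7 with miR-98, -0.39 for numbers 1000 and above and -0.41 for all 991. The member precursors were also longer, with a median of 109 bases against 79. Among precursors of at least 100 bases the medians were -0.32 for 18 member precursors and -0.35 for 160 others. The mature strand lay on a single arm of the fold in 27 of 33 member pairs of strand and precursor (81.8%), against 98.9% of all pairs. Among the long precursors this was 16 of 20 (80%) for members and 96.7% of 213 others. It did not hold for miR-686, miR-691, miR-705, miR-713, miR-719 and the Mir692-2 copy of miR-692. A single arm with at least 16 paired bases was found in 21 of 33 pairs (63.6%), against 81.7% of all, 93.5% of numbers below 500 and 74.2% of numbers 1000 and above. Among the long precursors it was 11 of 20 (55%) for members and 80.3% of 213 others. Mir693 had the lowest energy of the members, -0.67 per base, with 21 paired bases in its 3p strand and 19 in its 5p strand, each on 1 arm. Neither strand was measured: miR-693-5p had 0.73 on KO and 2.17 on WT, and miR-693-3p -4.76 on KO and -1.73 on WT. Mir690 had -0.27, with its mature strand on 1 arm and 15 bases paired. Precursors of miR-709, miR-706, miR-708 and miR-700 were not found in the table and were not folded. There was no fold either for miR-684, miR-694, miR-696, miR-712, miR-714 and the Mir692-3 copy of miR-692.

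**Figure D5:**
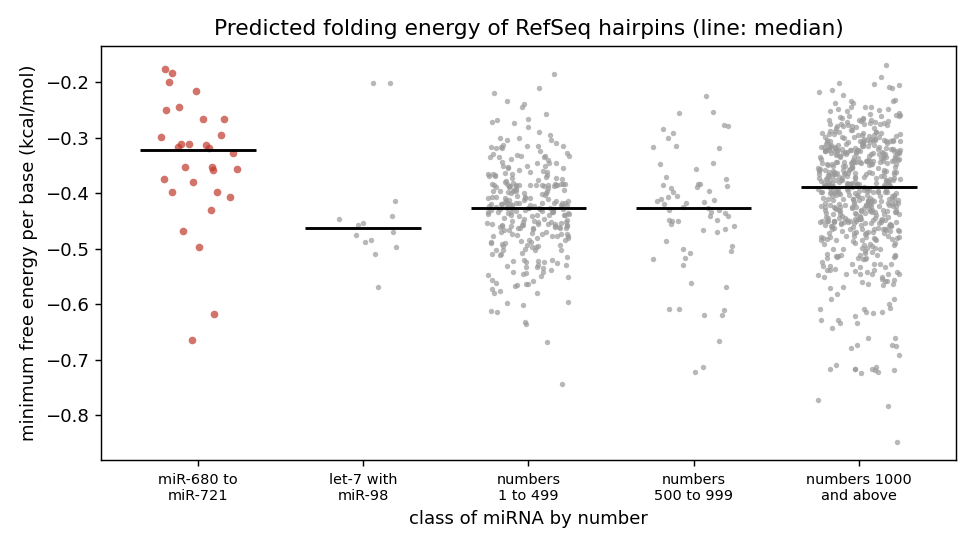
Predicted minimum free energy per base of each RefSeq precursor, by class of miRNA number, with lines at the medians. The miR-680 to miR-721 precursors have a median of -0.32 kcal/mol per base, above the medians of the other 4 classes, and Mir693 is their lowest point at -0.67.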

How the data were processed

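Per the file headers, the deposited array files hold spot intensity on a linear scale from Agilent 1-colour miRNA arrays. The submitters' processing notes name Agilent Feature Extraction 10.7.3. The processed signal is background-subtracted and can be negative, and it was not normalized between arrays. All value columns were mapped to a sample (0 were not). For all 1247 miRNAs on both arrays, the deposited value table held the total gene signal of the software to within 0.1%.

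Spots marked as outliers were left out (4.59% on KO, 5.16% on WT), signals were averaged per probe, and scaled as given above. Differences of the probes measured on both arrays were combined per miRNA by their median. The procedure was tested on simulated data. Precursors were folded with ViennaRNA 2.7.2. Other tools were R 4.3.3 with limma 3.58.1 (normexp) and Python 3.11.15 with pandas 2.3.3 and numpy 2.4.6.

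The members and lists were chosen with earlier results of these data known. Named were every member measured on an array, the 3 brightest others on each array, members with several genomic places, and the 3 miRNAs nearest to miR-709. Members described for their seed, place or fold were picked after their values were seen. Alternatives were 13 planned settings and 1 added one.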

Additional observations from a re-analysis of the deposited data

How the results depend on the processing

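No paired analysis was possible because only 1 array was made per genotype. The members measured were 1 on KO and 1 on both arrays under each filter or summary tried. On WT it was 2 with at least 1 spot above background, and 2 by total gene signal, where miR-690 was added. The difference of miR-709, also the median over members measured on both arrays (0.33), was -0.76 when scaled over all probes, -0.86 without scaling, -0.51 with positive control probes and 0.0533 with quantile normalization. It was 0.14 when all spots had to be above background, 0.54 when 1 had to be, and 0.83 by total gene signal and by the series value table. These factors move every miRNA: relative to the median miRNA, miR-709 lay between -0.56 and 0.25 over the 14 settings, the lowest with no filter on dim probes. With no filter, 8 members had signals above 0 on both arrays, and their median was 0.71, with 4 past 2-fold upwards and 1 past 2-fold downwards. Of all 477 miRNAs with such signals, 227 were past 2-fold upwards and 53 downwards, and their median was 0.89. The members past 2-fold were miR-684, miR-690, miR-698-3p and miR-700-5p upwards and miR-683 downwards, none of them measured on either array. No member was 2-fold changed under another setting. Leaving out rows above 320, chosen after seeing the data, gave 0.41. Its rank was 14 to 16 on KO and 16 to 18 on WT. Matching probes to a genome, with or without a mismatch, was not run, since no genome was used. The cause of these shifts was not tested. With 1 array per genotype and most signals below 0, neither the presence nor the change of the other 40 members could be measured.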
